A study of Mus musculus with 12 samples.

Results

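The 43 genes described here encode receptor tyrosine kinases other than the FGF receptors and the main receptors of blood vessels. They were chosen by gene symbol, and all 43 were found among the 54232 genes counted in the RNA of B16F10 cells, a mouse melanoma line. They comprise the ErbB receptors (4 genes), Met and Mst1r (2), the platelet-derived growth factor, Kit, Flt3 and Flt4 receptors (5), the insulin receptors (2), Ntrk2, Ntrk3 and Musk (3), the TAM receptors Axl, Mertk and Tyro3 (3), Ret, Alk, Ltk and Ros1 (4), the collagen receptors Ddr1 and Ddr2 (2), the ephrin receptors (12), the Wnt-binding receptors and Ptk7 (4), and Lmtk2 and Styk1 (2). By textbook classification Flt4 is a VEGF receptor of lymphatic vessels, and Lmtk2 phosphorylates serine and threonine, so the name of the group covers these members loosely.

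A receptor tyrosine kinase sits in the plasma membrane, binds a ligand outside the cell and, once paired with another receptor, phosphorylates tyrosines on its own tail. Adaptor proteins dock on these sites and pass the signal to the RAS-ERK and PI3K pathways, while ubiquitin ligases and phosphatases end it. In the melanocyte lineage Kit and Erbb3 act in development and Met responds to hepatocyte growth factor, whereas Pdgfra and Pdgfrb are typical of connective tissue cells and pericytes. Several members (Erbb3, Ephb6, Ryk and Ptk7) have little or no kinase activity of their own and signal through partners.

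The data are RNA-seq counts from 12 libraries of B16F10 cells (strain C57BL/6, age 6 weeks for every sample by the labels), in 4 groups of 3. WT cells were cultured and left untreated. The Relapsed group comprised the lines ITF1, Rel and ITM, each 1 library, which were injected under the skin of mice, sorted from tumors that relapsed after immunotherapy and grown to confluency again. Lyso cells were incubated with lysosomes derived from T cells, for 48 h by the labels and for a shorter time by the study's methods, and the Tumor libraries 1, 3 and 4 were made from cells sorted from relapsed tumors whose RNA was extracted at once. The immunotherapy combined an agonist of CD40, TNFα and an antibody that binds TRP1, an antigen of melanoma cells. The markers used in the sort were not given for these samples. Nothing in the labels says that the 3 libraries of a group came from separate cultures or animals, so p-values measure the spread between these libraries, which may be technical.

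Counts on genes ran from 1667398 (WT 1) to 16402629 (ITM). WT 1, WT 2 and the Tumor libraries (3102442 to 5049496) were shallow, and WT 3 and the Relapsed and Lyso libraries were deep. Levels are given as CPM, counts scaled by TMM to a library size of 1e+06, so the 3 counts taken here as the floor stand for 1.70 CPM in WT 1 and 0.177 CPM in WT 3, counting error only. WT 1 stood apart from the other WT libraries (chi-square per degree of freedom 12.8 and 20.3, against 4.79 between WT 2 and WT 3). All 10 melanocyte markers had counts in every library, and their summed level was 19840 to 38288 CPM. In Tumor, markers of other cell types were also present: 10 fibroblast genes summed to 7870 to 10845 CPM, against 76.3 to 213 in the 9 cultured libraries, 8 endothelial genes to 55.6 to 61.1 (9.37 to 33.6 in culture), 10 myeloid genes to 47.8 to 75.6 (12.2 to 46.8), and 6 pericyte and smooth muscle genes to 25.2 to 37.2 (9.29 to 26.9). The fibroblast collagen Col3a1 was at 4938, 4157 and 3369 CPM in Tumor 1, 3 and 4 and at 0 in 8 of the 9 cultured libraries, and the complement genes C1qa and C1qb and the endothelial receptor Kdr were at 0 in all 9. Of the genes that passed the expression filter, every Tumor library was above every WT library for 10 of 10 fibroblast, 6 of 7 endothelial and 6 of 7 myeloid genes. So were 3 of 5 pericyte and smooth muscle genes. The reverse held for 1 endothelial gene and 1 pericyte or smooth muscle gene. Over all genes, 21% were above and 15.1% below. A marker without a count in culture, as were C1qa, C1qb and Kdr, could pass the filter only through Tumor. Its place above WT was then built in, and these counts of markers are no separate support. The 10 T cell genes summed to 3.62 to 9.42 CPM in Tumor, 1.27 to 6.79 in WT, 0.603 to 1.84 in Relapsed and 15.1 to 17.0 in Lyso. Of these, Cd3d and Cd3e were at 0 in all Tumor libraries. Among the 4 T cell genes that passed the filter, 3 had a positive log2 fold change in Tumor against WT, 3 against Relapsed and 0 against Lyso. Of the other marker lists, 8 keratinocyte genes summed to 4.24 CPM at most in any library, and 4 Schwann cell genes, mostly Mbp, ranged from 28.0 to 497 CPM. The part of these cell types in the Tumor results below was not tested, and in bulk RNA fewer cells of a type and less RNA per cell cannot be told apart.

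Per kilobase of exon, the scale on which genes can be compared, Met was the most abundant member in every group. Its mean level in WT was 170.1 CPM per kilobase, followed by Ddr1 at 45.9, Ryk at 25.1, Ddr2 at 24.6, Erbb3 at 12.3 and Lmtk2 at 8.58. The SDs of Ddr2 (20.9) and Ddr1 (18.9) were wide enough that the order among Ddr1, Ryk and Ddr2 did not exceed the spread. Met alone held 45.4% to 69.9% of the members' counts in a library. At the other end, Epha8 had no count in any library, and 11 members, among them Egfr, Ntrk2, Ror1 and Ror2, had 3 counts or fewer over the 9 cultured libraries together. The expression filter kept 30 members, and 13 were not tested (Erbb4, Mst1r, Flt3, Ret, Alk, Ltk, Ros1, Epha8, Ephb1, Ephb3, Ror1, Musk and Styk1). Egfr, Ntrk2, Ntrk3 and Ror2 passed it only through the Tumor libraries, so a difference between Tumor and culture was built into their passing.

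**Figure D1:**
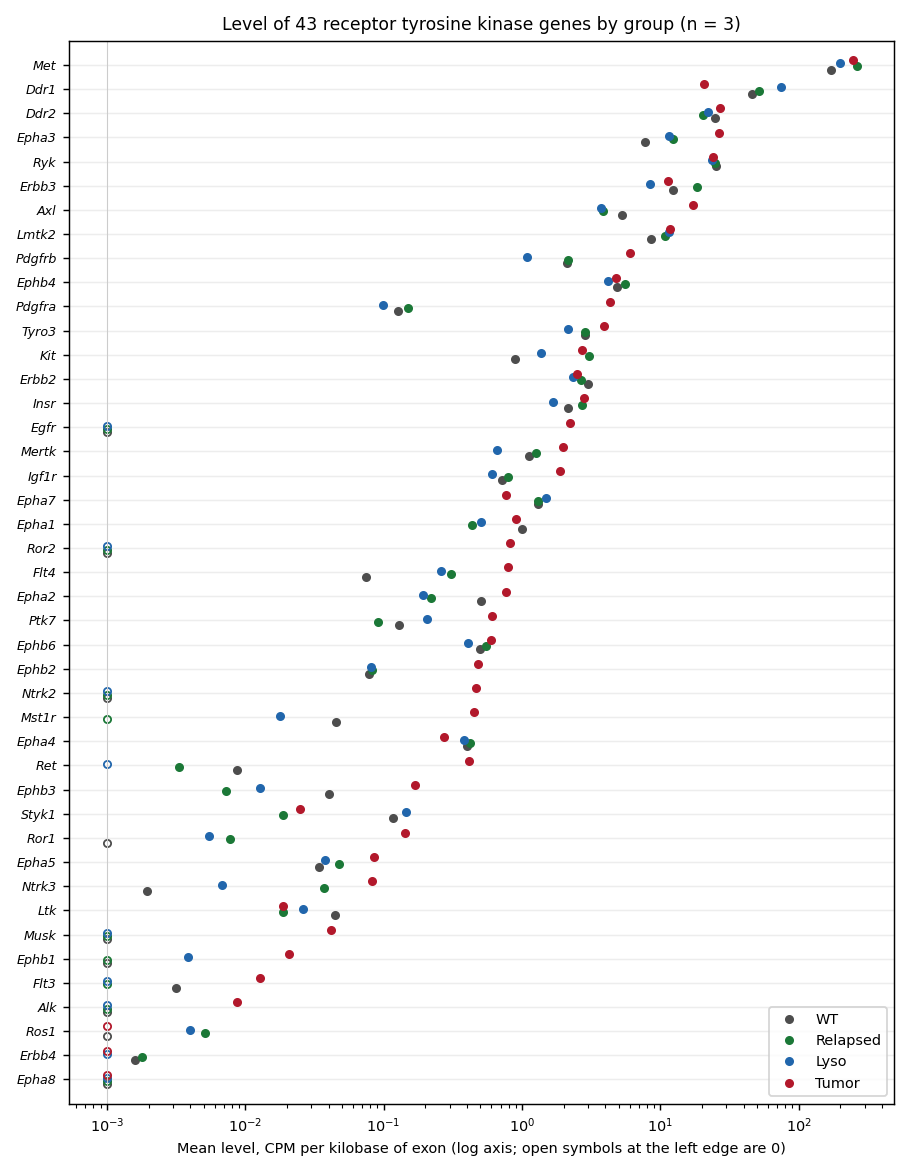
Mean level of each of the 43 genes in the 4 groups (n = 3), in CPM per kilobase of exon on a log axis; open symbols at the left edge mark groups without a count. Met lies at the top in every group, and Egfr, Ror2, Ntrk2, Musk and Alk have a filled symbol in Tumor only.

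Against WT, the sorted Tumor cells had higher levels of Pdgfra, Pdgfrb, Flt4, Igf1r, Axl, Epha3, Ephb2 and Ptk7, and a lower level of Ddr1. Egfr, Ntrk2 and Ror2, which passed the filter only through the Tumor libraries, were higher too. Of the 30 members tested, 11 were thus called higher in Tumor and 1 lower, where a call needs an edgeR quasi-likelihood p, adjusted over all genes, under 0.05 and a log2 fold change over 1 in size. Over all 14924 genes tested, 8.56% were called higher and 2.2% lower. The median log2 fold change was 0.68 over the 30 members, also with the genes without a WT count set at their bound, and 0.00 over all genes. Among the 26 tested members that also pass the filter on the cultured libraries alone, 8 were called higher and 1 lower (median 0.48). Styk1 passes on the cultured libraries too, but not with all 12, so it was not tested. Every Tumor library was above every WT library for 12 of the 26 and below for 1. The shares over all genes tested, which still include genes passing only through Tumor, were 21% and 15.1%.

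Among the ErbB receptors, which bind the EGF and neuregulin families, only Egfr was called. Egfr, the receptor of EGF and TGFα (chromosome 11 of GRCm38, 16752203 to 16918158), was at 33.5, 21.3 and 20.2 CPM in Tumor 1, 3 and 4 (103, 106 and 86 counts) and had no count in any of the 9 cultured libraries. Taking 3 counts over the group as the floor, the Tumor level was at least 169-fold higher than in WT (edgeR adjusted p = 0.000181). Egfr passed the filter only through Tumor, so this p is no separate support for the difference. Erbb2, which has no known ligand and pairs with the other ErbB receptors, was at 12.2 to 19.2 CPM in WT and 12.5 to 13.7 in Tumor, overlapping. Erbb3, the neuregulin receptor of the melanocyte lineage, was at 43.6, 86.1 and 93.1 CPM in WT and 71.8, 90.4 and 43.5 in Tumor, and these overlapped as well. Erbb4 had 1 count in each of WT 3 and Rel and 0 elsewhere.

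The platelet-derived growth factor receptors rose together. Pdgfra (chromosome 5, 75152292 to 75198215) was at 0.566, 1.27 and 2.005 CPM in WT and 55.9, 37.04 and 36.96 in Tumor, and the lowest Tumor library lay far above the highest cultured one (3.24, ITM). It had a log2 fold change of 4.69 ± 0.62 SE, adjusted p = 0.000242. Pdgfrb, a marker of pericytes and fibroblasts, was already present in culture, at 14.2, 9.29 and 11.4 CPM in WT, and reached 36.4, 32.4 and 30.6 in Tumor (log2 fold change of 1.53 ± 0.31 SE, adjusted p = 0.00441). Its Tumor libraries were all above the cultured ones. Flt4, the receptor of VEGF-C and VEGF-D, was at 0, 0.844 and 1.002 CPM in WT and 5.53, 7.65 and 6.36 in Tumor (log2 fold change of 2.95 ± 0.61 SE, adjusted p = 0.00452); the WT values lie under the floor in WT 1 and WT 2. Kit, the receptor of stem cell factor that melanocyte precursors need, did not pass the test. It was at 0, 11.8 and 12.1 CPM in WT and 25.7, 26.97 and 19.5 in Tumor, so the Tumor libraries were above WT, but WT 1 had no count against 28 in WT 2 (log2 fold change of 1.37 ± 0.66 SE, adjusted p = 0.171). Flt3, a receptor of early blood cells, had 1 count in WT 3 and 1 in Tumor 4.

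Of the insulin receptors, Igf1r was at 13.6, 9.29 and 13.03 CPM in WT and 25.7, 32.4 and 36.2 in Tumor, with no overlap (log2 fold change of 1.38 ± 0.25 SE, adjusted p = 0.00185). Insr, which binds insulin and IGF2, overlapped at 19.00 to 39.6 CPM in WT and 32.5 to 42.6 in Tumor. Among the neurotrophin receptors, Ntrk2, the receptor of BDNF, had no count in culture and was at 6.501, 9.06 and 11.3 CPM in Tumor. That is at least 64.6-fold higher than WT (edgeR adjusted p = 0.000605). Ntrk2 passed the filter only through Tumor, so this p is no separate support. Ntrk3, the receptor of neurotrophin 3, had 3 counts in WT and 32 in Tumor, a ratio of 18.3 with a 95% exact counting interval of 5.73 to 93.4, and was not called (edgeR adjusted p = 0.0972). Musk, which organises the synapse on muscle, had counts only in Tumor 4.

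The TAM receptors bind Gas6 and protein S and take part in the uptake of dying cells. Axl was at 14.7, 19.00 and 45.6 CPM in WT and 67.9, 76.3 and 116 in Tumor; WT 3 was the highest cultured library and still below every Tumor library (log2 fold change of 1.58 ± 0.38 SE, adjusted p = 0.0105). The call came close to the threshold when Tumor 4 was left out (adjusted p = 0.0497). Mertk was at 5.66, 4.22 and 4.78 CPM in WT and 9.43, 9.06 and 7.297 in Tumor, without overlap, and its difference was not called (log2 fold change of 0.83 ± 0.32 SE, adjusted p = 0.0924). Tyro3, the TAM receptor expressed in melanocytes, was at 13.2 to 24.9 CPM in WT and 20.1 to 26.4 in Tumor (log2 fold change of 0.52 ± 0.22 SE, adjusted p = 0.127).

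Of the collagen receptors, only Ddr1 was called with all libraries. Ddr1, typical of epithelia, was the only member called lower, at 117, 256 and 285 CPM in WT and 105, 95.4 and 94.4 in Tumor (log2 fold change of -1.17 ± 0.26 SE, adjusted p = 0.00755). All Tumor libraries were below all cultured ones, but WT 1 was far below WT 2 and WT 3, and with WT 1 and WT 2 as the only controls, the WT libraries near Tumor in depth, the log2 fold change was -0.93 and the call was lost on its size (adjusted p = 0.0447). Ddr2, typical of mesenchymal cells, was at 452, 108 and 125 CPM in WT and 276, 229 and 247 in Tumor, where the groups overlapped through WT 1 alone (log2 fold change of 0.16 ± 0.40 SE, adjusted p = 0.835). Without WT 1, Ddr2 was called higher in Tumor, with a log2 fold change of 1.10 (adjusted p = 0.000476).

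Of the 12 ephrin receptors, which bind ligands anchored on neighbouring cells, 9 were tested and 2 were called, both higher. Epha3 (chromosome 16, 63543534 to 63864175) was at 58.9, 62.1 and 81.5 CPM in WT and 197, 230.3 and 268 in Tumor, without overlap (log2 fold change of 1.76 ± 0.26 SE, adjusted p = 0.000471). Ephb2 rose from 1.13, 1.27 and 0.5897 to 5.201, 6.24 and 6.83 CPM (log2 fold change of 2.94 ± 0.46 SE, adjusted p = 0.000793); its WT values in WT 1 and WT 2 were at or under the floor. Epha1, Epha2, Epha4, Epha5, Epha7, Ephb4 and Ephb6 overlapped between the groups. The log2 fold changes of these 7 lay between -0.84 (Epha7) and 1.78 (Epha5), and Ephb4, the receptor of ephrin-B2, was nearly level at 21.2 to 24.9 CPM in WT and 18.8 to 24.4 in Tumor. When WT 1 was left out, Epha7 was called lower in Tumor (edgeR log2 fold change of -1.15, adjusted p = 0.0393).

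The Wnt-binding receptors and Ptk7, which act in planar cell polarity, were low except for Ryk. Ror2, a receptor of Wnt5a, had no count in culture and was at 5.53, 2.01 and 2.82 CPM in Tumor. That is at least 22.3-fold higher than in WT (edgeR adjusted p = 0.0049). Ror2 passed the filter only through Tumor, so this p is no separate support. DESeq2 did not call Ror2 here (adjusted p = 0.347), nor in Tumor against Relapsed (0.171) or Lyso (0.177). Ptk7 was at 0, 1.27 and 0.826 CPM in WT, under the floor in WT 1 and at it in WT 2, and at 4.55, 2.42 and 2.82 in Tumor (log2 fold change of 1.99 ± 0.51 SE, adjusted p = 0.0152). Its call was lost without WT 3 or without Tumor 1. Ryk was the steadiest abundant member, at 117, 118 and 106 CPM in WT and 111, 111 and 103 in Tumor. Its log2 fold change against WT was -0.01 ± 0.12 in Relapsed, -0.07 ± 0.12 in Lyso and -0.07 ± 0.12 in Tumor (SE).

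Met, the receptor of hepatocyte growth factor (chromosome 6, 17463800 to 17573980), was at 859, 1603 and 1457 CPM in WT and 1713, 2061 and 1914 in Tumor. Every Tumor library was above WT, but the difference was smaller than the threshold and not called (log2 fold change of 0.54 ± 0.22 SE, adjusted p = 0.118). Lmtk2, a membrane-bound kinase of endosomes, was at 62.8, 70.9 and 75.1 CPM in WT and 90.4, 107 and 86.6 in Tumor; it passed the adjusted p but not the fold (log2 fold change of 0.44 ± 0.13 SE, adjusted p = 0.0345). Among the untested members, Mst1r, a relative of Met, had 3 counts in WT and 30 in Tumor (ratio 17.2, 95% counting interval 5.34 to 87.9). Ret, the receptor of the GDNF family, had 3 and 33 (ratio 18.9, interval 5.92 to 96.2), and Ror1 had 0 and 10, at least 5.72-fold higher. Each of these 3, and Ephb3 too, was above WT in every Tumor library, as were 21% of the genes tested. Mst1r had 2 counts in Tumor 1 (0.650 CPM), and Ret, Ror1 and Ephb3 had 3 in Tumor 4 (0.706 CPM). These values lie under the 3-count floors of WT 1 and WT 2 (1.70 and 1.27 CPM), so the separation may be counting error. Styk1 went the other way, with 9 counts in WT, 29 in Lyso and 2 in Tumor. Its Tumor to WT ratio was 0.381 (interval 0.0401 to 1.84), and its Tumor to Lyso ratio 0.189 (0.0219 to 0.747). Ephb3 had 5 counts in WT and 13 in Tumor. Alk, Ltk, Ros1 and Ephb1 had at most 3 counts in any group.

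**Figure D2:**
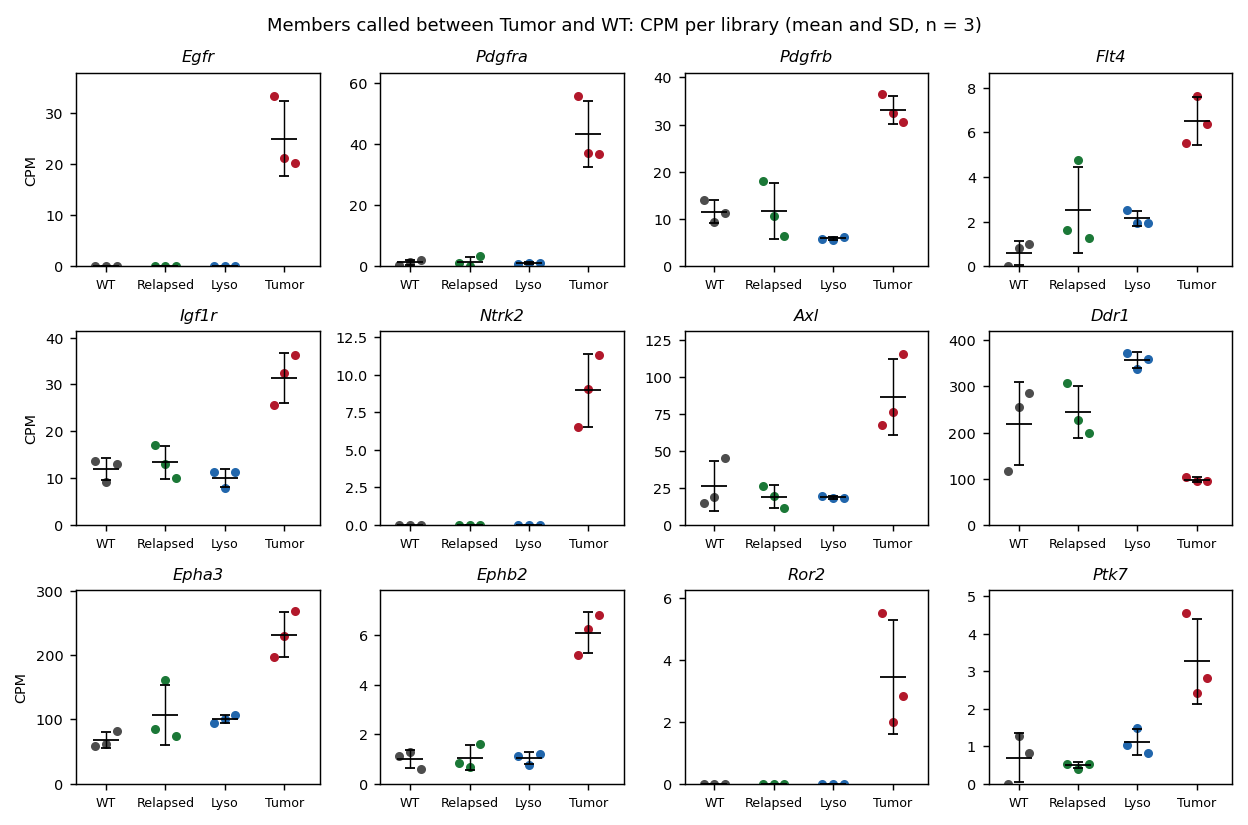
The 12 members called between Tumor and WT, in CPM per library; points are libraries and the bar gives the mean and SD (n = 3). Egfr, Ntrk2 and Ror2 are at 0 in all 9 cultured libraries, Ddr1 is lowest in Tumor, and WT 1 lies apart from WT 3 for Ddr1.

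The RefSeq promoters (250 bases before to 50 after the start, GRCm38.p6) of Egfr, Ntrk2 and Ror2, the called members without a count in culture, are printed with that of Pdgfra, which had counts in culture and the largest log2 fold change of the other called members. They are given in lower case with CpG dinucleotides in capitals. Egfr lies at chr11:16751953-16752252 (plus strand), Ntrk2 at chr13:58806319-58806618 (plus), Ror2 at chr13:53286075-53286374 (minus) and Pdgfra at chr5:75152001-75152300 (plus).
Egfr: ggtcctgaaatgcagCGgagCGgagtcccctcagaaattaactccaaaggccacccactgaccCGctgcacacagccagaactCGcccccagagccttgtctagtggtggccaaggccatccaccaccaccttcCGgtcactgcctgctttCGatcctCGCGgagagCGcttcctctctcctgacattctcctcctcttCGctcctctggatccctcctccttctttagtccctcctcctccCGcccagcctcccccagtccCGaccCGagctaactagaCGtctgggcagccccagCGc
Ntrk2: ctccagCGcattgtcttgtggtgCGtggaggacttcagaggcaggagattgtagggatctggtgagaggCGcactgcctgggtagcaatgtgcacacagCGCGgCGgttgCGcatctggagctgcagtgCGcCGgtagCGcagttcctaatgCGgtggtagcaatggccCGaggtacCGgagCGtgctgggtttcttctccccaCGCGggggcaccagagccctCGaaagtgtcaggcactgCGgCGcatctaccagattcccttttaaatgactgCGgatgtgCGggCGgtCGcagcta
Ror2: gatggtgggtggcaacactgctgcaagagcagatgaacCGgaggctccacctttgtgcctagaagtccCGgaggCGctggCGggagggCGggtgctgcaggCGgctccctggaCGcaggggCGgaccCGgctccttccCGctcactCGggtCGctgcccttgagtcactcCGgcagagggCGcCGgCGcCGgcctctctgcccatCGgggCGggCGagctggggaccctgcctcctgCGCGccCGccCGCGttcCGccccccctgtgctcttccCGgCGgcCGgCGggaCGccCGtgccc
Pdgfra: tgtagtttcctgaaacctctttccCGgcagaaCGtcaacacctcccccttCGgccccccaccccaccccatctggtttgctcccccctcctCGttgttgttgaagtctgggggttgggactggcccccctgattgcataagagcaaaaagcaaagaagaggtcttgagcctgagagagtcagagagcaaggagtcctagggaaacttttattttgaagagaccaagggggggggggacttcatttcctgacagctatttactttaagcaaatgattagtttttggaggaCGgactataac
The promoters of Egfr, Ntrk2 and Ror2 held 15, 23 and 32 CpG, and that of Pdgfra held 5. The median was 18 CpG over the 43 promoters listed for 37 of the members and 7 over all 32817 promoters.

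The letters TTCNNNGAA, the form bound by STAT factors, and GCGTGGGCG, the form bound by EGR1, were looked for on both strands because the study addresses STAT3 and EGR1. The first was in the promoter of 1 member, Epha3 (chr16:63864126-63864425, minus strand), where it starts at base 216 of the window and is in capitals.
Epha3: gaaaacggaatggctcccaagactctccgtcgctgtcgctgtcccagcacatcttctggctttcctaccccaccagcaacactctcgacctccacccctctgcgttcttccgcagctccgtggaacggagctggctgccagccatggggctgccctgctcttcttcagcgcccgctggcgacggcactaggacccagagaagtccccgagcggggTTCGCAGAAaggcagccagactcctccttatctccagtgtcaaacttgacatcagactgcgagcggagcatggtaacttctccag
That is 2.33% of the members' promoters, against 8.29% of all promoters. The second was in none of them and in 0.612% of all. A match is a description of letters and not a binding site.

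Against WT, whose libraries WT 1 and WT 2 were shallow, the cultured groups had no called member. Relapsed lines against WT gave 0 by edgeR, where 0.0134% of all genes were called higher and 0.0268% lower, and 0 by DESeq2. An unadjusted edgeR p under 0.05 was found for 6 of the 30 tested members and 1636 of all 14924 genes. Lyso against WT also gave 0 by edgeR, where 2.43% of all genes were called higher and 0.576% lower, and 0 by DESeq2. Here 7 members and 2789 of all genes had an unadjusted p under 0.05. The libraries did not overlap WT for 16.7% of members and 10.6% of all genes in Relapsed. In Lyso the shares were 30% and 27.4%. The smallest unadjusted p in both comparisons was that of Epha2, a receptor of ephrin-A1. It was at 2.26, 1.69 and 3.18 CPM in WT, 1.31, 0.803 and 0.959 in Relapsed and 0.849, 1.02 and 0.8098 in Lyso. Every Relapsed and Lyso library was below WT, where WT 1 and WT 2 had 4 counts each (Relapsed log2 fold change of -1.36 ± 0.43 SE, adjusted p = 0.303; Lyso log2 fold change of -1.55 ± 0.45 SE, adjusted p = 0.0724). Its level in Tumor was 5.85, 1.61 and 3.295 CPM, overlapping WT.

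**Figure D3:**
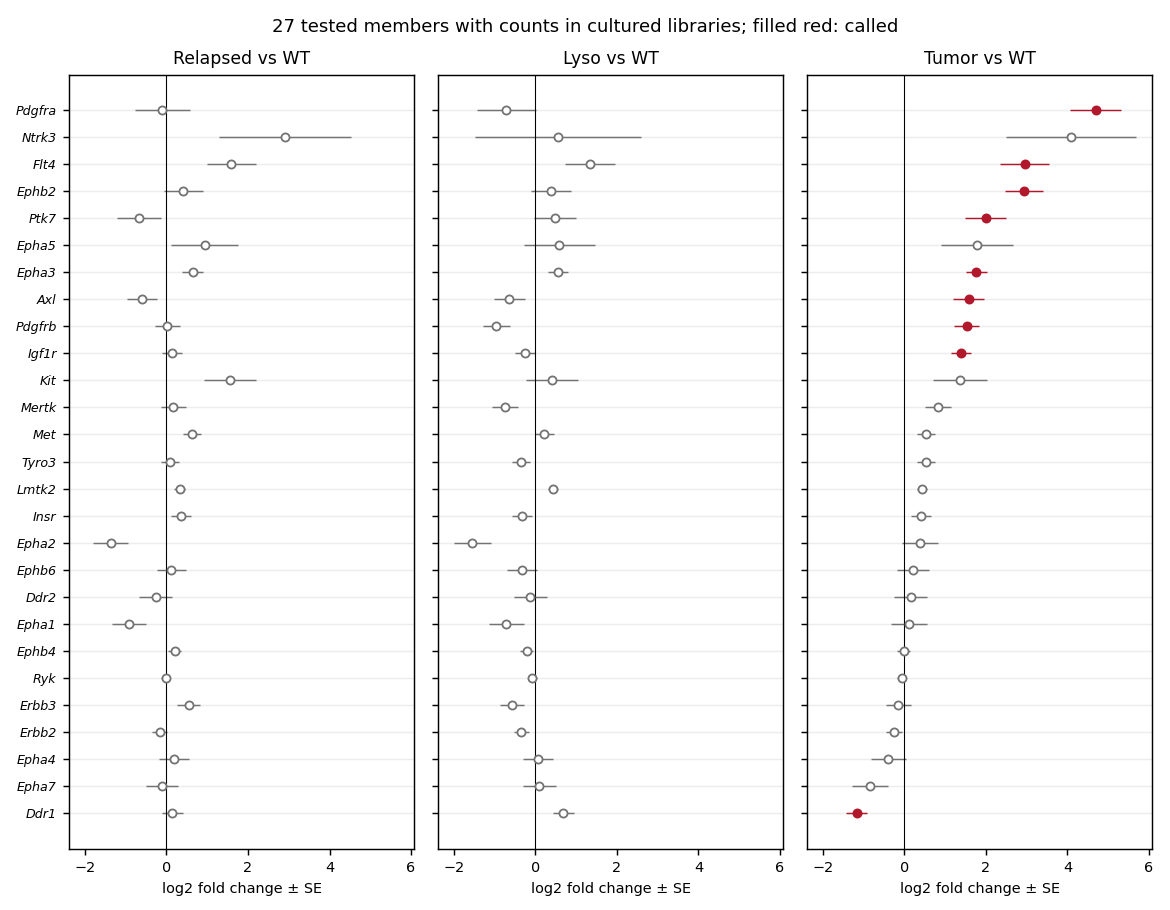
Log2 fold change against WT, with its SE, for the 27 tested members that had counts in the cultured libraries; red filled points were called. All called points are in the Tumor comparison, with Ddr1 the only one below 0.

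Tumor against the Relapsed lines, a comparison that does not use WT, gave 11 members higher and 1 lower, where 8.36% of all genes were called higher and 2.31% lower. Among the 26 tested members that also pass the filter on the cultured libraries alone, 8 were higher and 1 lower (median log2 fold change 0.43). Epha2 was called here (log2 fold change of 1.74 ± 0.43 SE, adjusted p = 0.0125), though not without Tumor 1 (adjusted p = 0.0768), and Flt4 was not (log2 fold change of 1.36 ± 0.46 SE, adjusted p = 0.0572). The other 10 higher members and Ddr1 were those called against WT. Axl was at 26.7, 19.5 and 11.6 CPM in the Relapsed lines (log2 fold change of 2.18 ± 0.37 SE, adjusted p = 0.00112), Igf1r at 17.05, 13.1 and 10.01 (log2 fold change of 1.24 ± 0.23 SE, adjusted p = 0.00185) and Pdgfrb at 18.1, 10.6 and 6.53 (log2 fold change of 1.50 ± 0.29 SE, adjusted p = 0.0026). For each of these 3, every Tumor library was above every Relapsed line, where 37.5% of all genes tested did not overlap. Ddr1 was at 308, 227 and 199 CPM in the Relapsed lines, all above Tumor (log2 fold change of -1.32 ± 0.26 SE, adjusted p = 0.00323). Ephb2 (0.845, 0.669 and 1.62 CPM) and Ptk7 (0.538, 0.402 and 0.539 CPM) were low in all 3 lines, with log2 fold changes of 2.52 and 2.66. Epha3 was at 85.8, 161 and 74.2 CPM in the lines (log2 fold change of 1.12 ± 0.25 SE, adjusted p = 0.00616), and its call was lost without ITF1, ITM or Tumor 4, when the log2 fold change fell to 0.91 at the lowest. Egfr, Ntrk2 and Ror2 were at least 357-fold, 137-fold and 47.2-fold higher in Tumor.

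Tumor against Lyso gave 13 higher and 1 lower, where 8.78% of all genes were called higher and 4.14% lower. Of the same 26 members, 10 were higher and 1 lower, with a median log2 fold change of 0.84. All 11 members called higher against WT were among them, with Epha2 (log2 fold change of 1.93 ± 0.45 SE, adjusted p = 0.00715) and Mertk (log2 fold change of 1.57 ± 0.30 SE, adjusted p = 0.00228) in addition. Mertk was at 2.73, 3.07 and 2.83 CPM in Lyso and 7.29, 6.03 and 3.12 in the Relapsed lines, and every Lyso library was below every WT, Relapsed and Tumor library. Pdgfrb was likewise lowest in Lyso, at 5.75, 5.68 and 6.32 CPM, and its difference from Tumor was the largest of the 3 comparisons (log2 fold change of 2.48 ± 0.30 SE, adjusted p = 9.48e-05). Ddr1 was highest in Lyso, at 372, 337 and 359 CPM, above every other library (log2 fold change of -1.86 ± 0.26 SE, adjusted p = 0.000282 in Tumor against Lyso). Flt4 was at 2.55, 1.96 and 1.94 CPM in Lyso (log2 fold change of 1.61 ± 0.48 SE, adjusted p = 0.027), and its call was lost without any 1 of the Lyso libraries or without Tumor 3 or Tumor 4. Axl (19.8, 18.4 and 18.1 CPM), Igf1r (11.2, 7.92 and 11.3), Epha3 (94.2, 99.9 and 107) and Pdgfra (0.6600, 1.12 and 1.21) were each below all Tumor libraries. Ephb2 (1.13, 0.745 and 1.21) and Ptk7 (1.04, 1.49 and 0.8098) were too, though the call of Ptk7 was lost without Lyso 1, Lyso 3 or Tumor 1. Of all genes tested, 54.9% did not overlap between Tumor and Lyso.

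Lyso and the Relapsed lines, both deeply sequenced, differed in 1 member. Erbb3 was at 147, 81.5 and 103 CPM in ITF1, Rel and ITM and at 49.2, 52.5 and 50.7 in Lyso, so every Lyso library was below every line (log2 fold change of -1.12 ± 0.29 SE, adjusted p = 0.0339). Over all genes 3.21% were called higher and 1.04% lower in this comparison. The call was lost without ITF1, the line with the highest Erbb3, and without any 1 of the Lyso libraries (adjusted p up to 0.127). Erbb3 also acts in Schwann cells, and the summed level of the 4 Schwann cell genes was 112 to 497 CPM in the lines, highest in ITF1, and 28.0 to 29.8 in Lyso. The 10 T cell genes were also higher in sum in Lyso than in the lines, as given above, and Gzmb, at 5.10 to 6.71 CPM in Lyso, was at 0 in all WT and Relapsed libraries. The part of either in the result was not tested. Met was at 1916, 2532 and 1616 CPM in the lines and 1409, 1595 and 1575 in Lyso (log2 fold change of -0.40 ± 0.22 SE, adjusted p = 0.317), Lmtk2 at 76.9 to 93.3 and 87.4 to 104, Ddr2 at 191, 219 and 152 and 198, 211 and 209.6, and Ryk at 130.2, 98.1 and 109 and 106, 108 and 109.7. Of these 4, only Met did not overlap, where 29.8% of all genes tested did not.

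The 3 Relapsed lines differed among themselves more than the Lyso libraries did, with a chi-square per degree of freedom of 47.4 to 67.2 between lines and 1.55 to 12.1 between Lyso libraries. Kit was at 10.3, 16.6 and 55.1 CPM in ITF1, Rel and ITM, so that ITM alone was above every other library of the series, and at 10.9, 12.9 and 13.04 in Lyso. ITM also had the highest Pdgfra among cultured libraries (0.998, 0.268 and 3.24 CPM in ITF1, Rel and ITM), a gene that lies on the same chromosome 5 as Kit (75574916 to 75656722). Rel stood out for Ntrk3, at 0, 3.21 and 0.1198 CPM, for Flt4, at 1.61, 4.75 and 1.26, and for Epha3, at 85.8, 161 and 74.2. In Rel, 48 of the 50 Ntrk3 counts of the group were found. The Epha3 level of Rel was above all WT and Lyso libraries and below all Tumor libraries. Each line is 1 library, so these differences between lines have no replicate check. Left without Rel, Tumor against Relapsed also called Flt4 (log2 fold change 2.18, adjusted p = 0.00223) and Ntrk3 (4.98, adjusted p = 0.00178). Rel was the line highest in both, so leaving it out widens these differences by construction. Ntrk3 also passed the filter only through Tumor. The same fit called Mst1r, Ret and Ephb3 higher too, which are low in culture and became testable through Tumor. None of these calls is separate support.

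**Figure D4:**
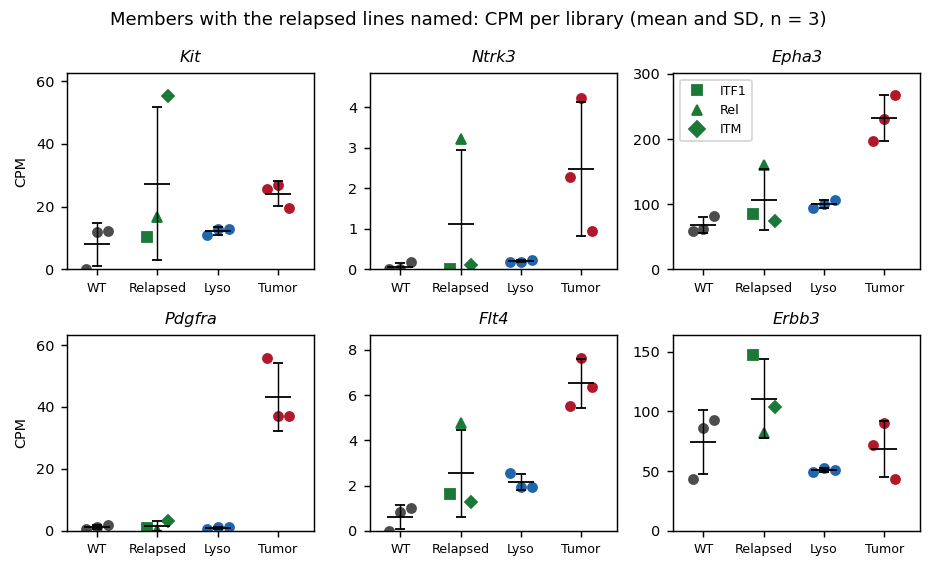
CPM per library of 6 members, chosen after their values were seen, with ITF1, Rel and ITM drawn as separate symbols; the bar gives the mean and SD of each group (n = 3). Kit is highest in ITM, Ntrk3, Epha3 and Flt4 are highest in Rel among the lines, and Erbb3 is highest in ITF1.

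The ligands and co-receptors of these receptors were followed in a list of 56 genes, of which 40 were tested. In Tumor against WT, 14 (35%) were called higher and 2 (5%) lower, against 8.56% and 2.2% of all genes tested. The median log2 fold change was 0.60. Here too, genes with few or no counts in culture passed the filter only through Tumor, among them Gas6, Igf1 and Gfra2. Their p, and the share called, are thus no separate support for a difference. This list was not recounted on genes that pass the filter on the cultured libraries alone. By smallest p, the 6 named are Vegfd, a ligand of Flt4, Gas6, the ligand of the TAM receptors, Pdgfd, a ligand of Pdgfrb, Igf1, the ligand of Igf1r, Gfra2, a co-receptor of Ret, and Efnb2, a ligand of Ephb2 and Ephb4. Vegfd was at 0.566, 0 and 0.236 CPM in WT and 9.43, 9.86 and 9.18 in Tumor (log2 fold change of 5.24 ± 0.55 SE, adjusted p = 3.75e-05). Gas6 was at 0, 0.422 and 0.177 CPM in WT and 18.5, 15.1 and 36.96 in Tumor (log2 fold change of 6.85 ± 0.65 SE, adjusted p = 4.96e-05), and its 3 Lyso libraries had no count. Neither gene overlapped. Pdgfd rose from 0, 0 and 0.236 to 7.48, 5.64 and 6.59 CPM (log2 fold change of 5.07 ± 0.70 SE, adjusted p = 0.000303). Igf1 had 1 count in WT and 91 in Tumor, a ratio of 156 with a 95% counting interval of 27.3 to 6234, and Gfra2 was at least 30.9-fold higher. Efnb2 was at 0, 0.422 and 0.944 CPM in WT and 9.102, 5.43 and 3.77 in Tumor (log2 fold change of 3.02 ± 0.54 SE, adjusted p = 0.00193). For 3 further ligands, singled out after their values were seen, the receptors are members described above: Ereg, which binds Egfr, Hgf, which binds Met, and Wnt5a, which binds Ror2, had no count in culture and were at least 61.2-fold, 11.4-fold and 19.4-fold higher in Tumor than in WT. The 2 called lower, also named after their values were seen, were Artn, a ligand of Ret with Gfra3 (1.13, 2.11 and 2.59 CPM in WT, 0.325, 0.403 and 0 in Tumor), and the neuregulin Nrg2 (2.83, 0.844 and 1.24 and 0.325, 0.201 and 0.235); both had 3 counts in Tumor in all.

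In the other comparisons the ligand list gave 0 calls for Relapsed against WT. There, 5 ligand genes and 1636 of all 14924 genes had an unadjusted edgeR p under 0.05. Lyso against WT gave 1 higher and 1 lower, where 2.43% of all genes were called higher and 0.576% lower. Lyso against Relapsed gave 2 higher (all genes 3.21% and 1.04%). Tumor against Relapsed gave 16 higher and 0 lower (all genes 8.36% and 2.31%). Tumor against Lyso gave 15 higher and 3 lower (all genes 8.78% and 4.14%). Pros1, which encodes protein S, was the one higher in Lyso than WT, at 23.8, 22.4 and 29.8 CPM in WT and 46.1, 56.4 and 60.3 in Lyso (log2 fold change of 1.06 ± 0.22 SE, adjusted p = 0.0131), and it was at 62.7, 58.8 and 57.9 in Tumor. Ngfr, the low-affinity neurotrophin receptor, was lower in Lyso, at 0.566, 0.422 and 2.77 CPM in WT and 0, 0.0931 and 0.08099 in Lyso (log2 fold change of -4.66 ± 1.21 SE, adjusted p = 0.0472), with WT 1 and WT 2 under the floor. Nrtn, a ligand of Ret, and the ephrin Efna3 were higher in Lyso than in the Relapsed lines (2.64, 2.98 and 2.35 against 0.384, 1.07 and 1.198 CPM, and 3.87, 2.98 and 3.08 against 0.461, 0.937 and 1.797). Vegfd, Gas6, Igf1 and Gfra2 were among the 6 with the smallest p in both Tumor comparisons with Relapsed and Lyso. Ptn, a ligand linked to Alk, was also among them in Tumor against Relapsed, and Pdgfd and Pdgfc were in Tumor against Lyso.

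Downstream, 48 adaptors and negative regulators were followed and 44 tested. In Tumor against WT, 6 (13.6%) were called higher and 1 (2.27%) lower, against 8.56% and 2.2% of all genes tested. The median log2 fold change was 0.17. Errfi1, a feedback inhibitor of ErbB receptors, had the smallest p, at 22.1, 19.00 and 20.4 CPM in WT and 88.4, 86.4 and 106 in Tumor (log2 fold change of 2.19 ± 0.13 SE, adjusted p = 1.99e-07). Its 9 cultured libraries lay between 17.9 and 22.8 CPM, all below Tumor. Irs2, an adaptor of the insulin receptors, was at 17.5, 8.87 and 10.1 CPM in WT and 159, 64.01 and 79.8 in Tumor (log2 fold change of 3.12 ± 0.36 SE, adjusted p = 7.16e-05). Grb10, which binds and restrains the insulin receptors, had no count in culture, so it passed the filter only through Tumor. It was at 18.2, 16.3 and 16.2 CPM in Tumor, at least 118-fold higher than in WT. Shc2 had 1 count in WT and 59 in Tumor (ratio 101, 95% counting interval 17.5 to 4066). It had no count in Relapsed or Lyso, so it too passed the filter only through Tumor. Lrig1, which promotes the degradation of ErbB receptors, was at 0, 0.422 and 0.295 and 9.43, 5.43 and 3.77 CPM (log2 fold change of 4.37 ± 0.60 SE, adjusted p = 0.000309), and Cblb, a ubiquitin ligase, at 9.62, 6.33 and 8.31 and 18.2, 24.2 and 19.5 (log2 fold change of 1.36 ± 0.20 SE, adjusted p = 0.000486). None of the 6 overlapped between WT and Tumor, but they were picked by their p in this comparison. Over all genes tested, 36.1% did not overlap. Dok5, named after its values were seen, was the one lower (14.7, 57.00 and 54.02 CPM in WT, 6.501, 7.65 and 5.88 in Tumor).

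The adaptor list gave 0 calls for Relapsed against WT. There, 6 adaptor genes and 1636 of all 14924 genes had an unadjusted edgeR p under 0.05. Lyso against WT gave 1 higher, where 2.43% of all genes were called higher and 0.576% lower. Lyso against Relapsed gave 2 higher (all genes 3.21% and 1.04%). Tumor against Relapsed gave 9 higher and 1 lower (all genes 8.36% and 2.31%). Tumor against Lyso gave 9 higher and 2 lower (all genes 8.78% and 4.14%). Dok4 was higher in Lyso than WT, at 9.06, 6.76 and 8.08 CPM in WT and 17.8, 15.6 and 17.2 in Lyso (log2 fold change of 1.09 ± 0.27 SE, adjusted p = 0.0362), and in Tumor it was at 2.600, 7.85 and 6.83. Dok3 and Shc3 were the ones higher in Lyso than in the Relapsed lines (3.02, 2.42 and 2.92 against 0.768, 1.81 and 0.959 CPM, and 4.71, 4.19 and 3.81 against 0.307, 1.54 and 2.28). Errfi1, Irs2, Grb10, Shc2 and Lrig1 were among the 6 with the smallest p in both Tumor comparisons with Relapsed and Lyso, joined by Cblb against Relapsed and by the phosphatase Ptprj against Lyso.

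**Figure D5:**
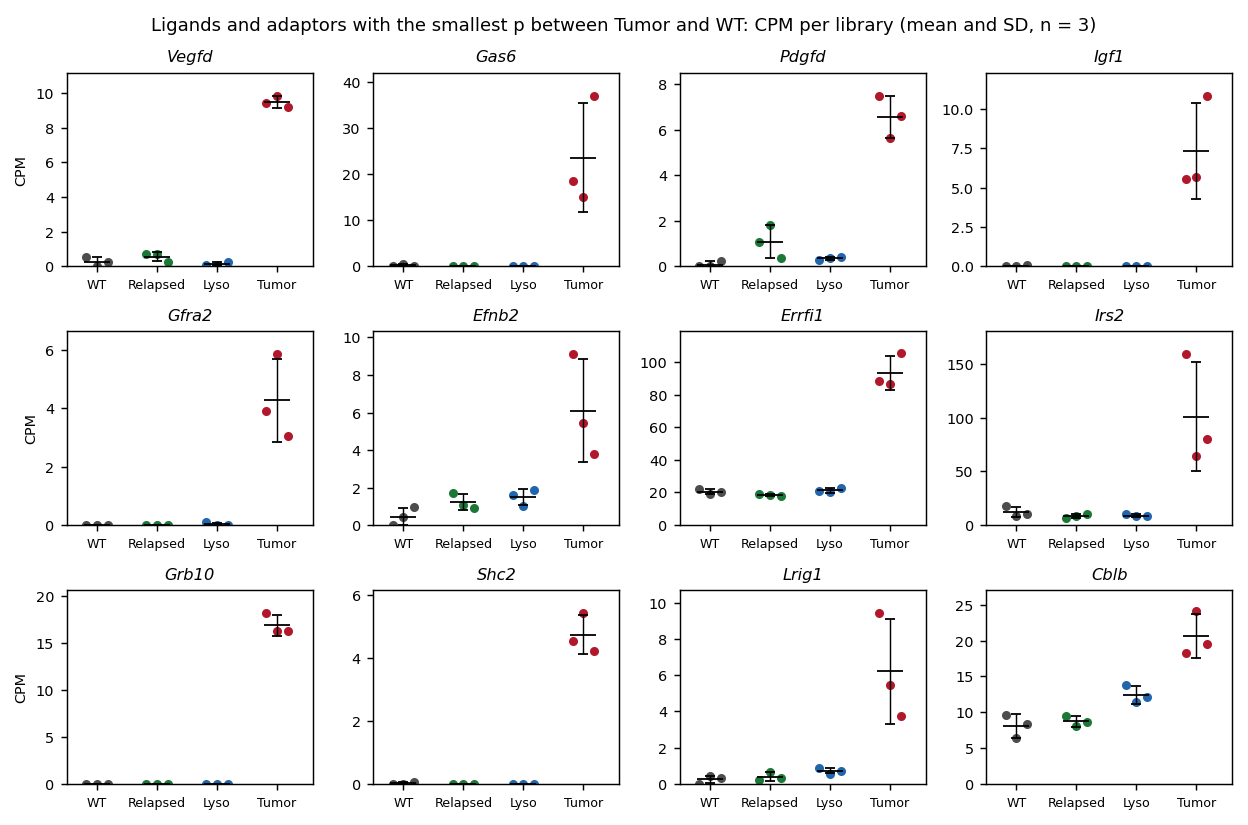
CPM per library of the 6 ligands and co-receptors and the 6 adaptors with the smallest p in Tumor against WT; the bar gives the mean and SD (n = 3). All 12 genes are higher in every Tumor library than in any WT library, as are 21% of all genes tested. They were picked by their p in this same comparison, so this is no separate support.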

How the data were processed

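RNA was sequenced from 12 libraries in 4 groups of 3, and groups and replicate numbers were taken from the sample labels. The authors trimmed reads (fastp 0.19.6), aligned them to GRCm38 (STAR 2.7.1a) and deposited raw counts per gene, without normalization, in 1 table; the submitters' processing notes also name DESeq2 1.24.0. The strand setting and annotation release were not given in the sources used here, so reads of overlapping genes cannot be told apart by strand. Reads counted on genes were 36.2% to 39.4% of each column, and the 4 rows of reads not on a gene were left out. Symbols, positions and exon lengths came from GENCODE M21 on GRCm38, and 54165 of 54232 identifiers had a symbol.

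From these counts, edgeR 4.0.16 in R 4.3.3 (TMM, filterByExpr by group, glmQLFit and glmQLFTest, 1 fit of all libraries) tested 14924 genes in 6 comparisons, with Benjamini-Hochberg adjustment over all of them. Standard errors (SE) were taken as the size of the log2 fold change divided by the root of its F statistic. A fold against a group without counts is a bound from a floor of 3 counts over the group, and intervals are 95% exact, for counting error only. The fit was tested on simulated counts.

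Members, lists and promoter motifs were chosen with earlier results of these data known. Library values are given for members called in any comparison and for the 6 most abundant per kilobase in WT, and up to 6 genes of each ligand or adaptor list per comparison, those called with the smallest p; Kit, Insr, Tyro3 and other members are given as ranges or where their spread matters, and genes outside this rule are marked. Comparisons with WT share its libraries, as those with Tumor share Tumor's. Alternatives were RLE factors, library size alone, DESeq2 1.42.0, no filter, a minimum of 10 counts, a fit of the compared groups, the replicate block, the adjusted p alone, glmTreat, WT libraries of similar depth and each library left out. Promoters are RefSeq's; protein sequences were not used here, and 1 gene of the ligand list is not reported here by name.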

Additional observations from a re-analysis of the deposited data

How the results depend on the processing

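No called member changed direction under any alternative that tested it. The direction of members that were not called was not compared. RLE factors, library size alone, DESeq2 and the adjusted p alone left each count of called members within 1.5 times of the value given. Without a filter on low counts, 1 member was called for Relapsed against WT (Kit), 1 for Lyso against WT (Epha2) and 5 for Lyso against Relapsed. With at least 10 counts in every library compared, which leaves out Egfr, Ntrk2, Ror2 and other members low in culture, 5, 6 and 8 members were called in Tumor against WT, Relapsed and Lyso. A fit of the compared groups alone called 1 member in Lyso against WT (Epha2). With glmTreat, which tests against a log2 fold change of 1, the counts were 7, 7 and 9 for Tumor against WT, Relapsed and Lyso, and 0 for Lyso against Relapsed, where Erbb3 was lost.

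Leaving out each library in turn gave 0 to 3 called members in Lyso against Relapsed, 10 to 16 in Tumor against WT, 12 to 17 in Tumor against Relapsed and 13 to 16 in Tumor against Lyso. The lowest, 10, was without WT 3, and the highest, 16, without WT 1. Mst1r and Ret, untested with all libraries, were tested and called higher in Tumor than WT without WT 1 or WT 2. With 6 and 4 counts over the cultured libraries, they became testable only through Tumor, so these calls are no separate support. DESeq2 did not call Ror2 in Tumor against WT, Relapsed or Lyso, and called Ntrk3 against WT and Lyso and Flt4 against Relapsed.

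The replicate numbers that WT, Lyso and Tumor share did not pair the libraries (correlations of same-numbered deviations -0.0081 to 0.065). With the replicate block, 0 members were called in Lyso against WT, 9 in Tumor against WT, where Ddr1 and Ptk7 were lost and Ror2 was not tested, and 12 in Tumor against Lyso. WT 1, WT 2 and the Tumor libraries are shallow, so depth and group cannot be told apart fully. With WT 1 and WT 2 as the only controls, 10 members were called in Tumor against WT. With WT 3 as the only control, assumed to vary like the other groups, 0 members were called in Relapsed and in Lyso, where 19 and 261 genes were called in all.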
